A study of Mus musculus with 24 samples.

Results

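The genes described are H19 and the insulin-like growth factor (IGF) axis of C2C12 muscle tissue, 10 genes chosen by name: the imprinted long noncoding RNA H19, the ligands Igf1 and Igf2, the receptors Igf1r and Igf2r, and the binding protein genes Igfbp2, Igfbp3, Igfbp4, Igfbp5, and Igfbp7. They are 10 of the 56941 genes listed in the study's tables, and all 10 passed the filter on low counts that left 13315 genes for testing. C2C12 is a mouse myoblast line, here of the genotype ChR2::tdTomato, in which a light-gated channel lets blue light trigger contraction. Tissues were differentiated on fibrin hydrogels and were either left unstimulated (control) or exercised with light for 60 min daily at 1, 4, or 10 Hz, with 6 tissues and 6 RNA-seq libraries per condition. All conditions, controls included, share 1 cell line, its transgene, and a differentiation medium of 10% horse serum with 50 ng/ml IGF-1, so every comparison was made with added IGF-1 protein present, and control tissues also twitched spontaneously. Each library came from a whole tissue, so fewer cells of a type and less RNA per cell cannot be told apart.

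IGF1 and IGF2 are secreted growth factors that act mainly through the receptor tyrosine kinase IGF1R, which drives both proliferation and differentiation of muscle precursors through the PI3K-AKT and MAPK branches. IGF2R, the cation-independent mannose 6-phosphate receptor, takes up IGF2 for degradation, and secreted binding proteins hold the ligands in the extracellular space until proteases release them. H19 and Igf2 are neighbours in 1 imprinted domain, H19 being transcribed from the maternal and Igf2 from the paternal chromosome, and both are known to be abundant in fetal muscle and to rise when C2C12 myoblasts differentiate.

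In the GENCODE M39 annotation of GRCm39, H19 lies at chr7:142129262-142133957 on the minus strand and Igf2 at chr7:142204503-142220694 on the same strand, with their starts 86.7 kb apart. Each gene holds a microRNA, Mir675 in H19 and Mir483 in Igf2, and the estimated count of both microRNA genes was 0 over all 24 libraries, which were made from poly(A)-selected or ribodepleted RNA and not from small RNA. The mature arms are shown because they are the processed products of these loci that the libraries did not measure, in RefSeq sequence (GRCm38.p6) with the seed, bases 2 to 8, in capitals. The 4 seeds differ from each other.
miR-675-5p: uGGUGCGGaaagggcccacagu
miR-675-3p: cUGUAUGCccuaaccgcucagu
miR-483-5p: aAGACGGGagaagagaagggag
miR-483-3p: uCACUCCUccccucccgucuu

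Igf1r lies on the same chromosome as H19 and Igf2 (chr7:67601518-67883416, plus strand). Igfbp2 (chr1:72863606-72891634, plus strand) and Igfbp5 (chr1:72897091-72914043, minus strand) face each other with their ends 5456 bases apart. Igf1 lies at chr10:87693642-87772904 (plus), Igf2r at chr17:12901293-12988614 (minus), Igfbp3 at chr11:7156086-7164179 (minus), Igfbp4 at chr11:98932064-98945218 (plus), and Igfbp7 at chr5:77493130-77555931 (minus), all in GRCm39. Airn overlaps Igf2r on the opposite strand with 5.27% of its summed count, Polr2b overlaps Igfbp7 with 153% of its count, Pgpep1l overlaps Igf1r with 4.38%, and the protein-coding model Gm49394 overlaps Igf2 on the same strand with 1.02%. How the strand was used in counting is not given in the sources used here, so reads of these partners may be split between them.

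Promoter windows were available in RefSeq (GRCm38.p6) for 9 of the 10 members, all but H19. Each lies before a RefSeq start, which need not be the start of the gene span given above in GRCm39. The windows of Igf1, Igf1r, and Igfbp3 are shown, since Igf1 was the called member, Igf1r had the smallest p on counts, and Igfbp3 passed the adjusted p on both scales, as described further on: the 250 bases before the start of Igf1 (chr10:87860861-87861110, plus strand), of Igf1r (chr7:67952007-67952256, plus strand), and of Igfbp3 (chr11:7213924-7214173, minus strand), each written 5′ to 3′ along its gene. Capitals mark 4 motifs, searched on both strands: the E-box (CAGCTG), which myogenic factors bind, the TATA box (letters TATAAA), the CCAAT box (letters CCAAT), and the GC-box (letters GGGCGG). None of the 4 overlaps another in these windows.
Igf1: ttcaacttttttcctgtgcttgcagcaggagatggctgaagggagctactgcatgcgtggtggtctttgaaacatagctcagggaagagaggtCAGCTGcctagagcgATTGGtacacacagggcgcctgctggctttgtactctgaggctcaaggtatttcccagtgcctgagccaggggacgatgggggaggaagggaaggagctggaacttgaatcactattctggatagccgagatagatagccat
Igf1r: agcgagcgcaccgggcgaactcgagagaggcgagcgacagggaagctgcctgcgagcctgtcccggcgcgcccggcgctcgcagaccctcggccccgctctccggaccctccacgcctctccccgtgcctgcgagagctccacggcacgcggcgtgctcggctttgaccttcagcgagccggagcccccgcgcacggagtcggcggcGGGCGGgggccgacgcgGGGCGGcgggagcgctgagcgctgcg
Igfbp3: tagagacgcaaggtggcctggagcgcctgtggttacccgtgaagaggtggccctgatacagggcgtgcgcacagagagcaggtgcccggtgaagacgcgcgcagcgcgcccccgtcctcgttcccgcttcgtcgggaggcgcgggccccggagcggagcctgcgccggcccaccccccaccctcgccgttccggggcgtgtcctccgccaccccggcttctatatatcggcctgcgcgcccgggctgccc
The window of Igf1 holds 1 E-box, 157 bases before the start, and 1 CCAAT box on the other strand, that of Igf1r 2 GC-boxes, and that of Igfbp3 none of these letters. Among 32851 RefSeq windows of the same length, 13.0% hold the E-box, 12.4% the TATA box, 33.8% the CCAAT box, and 32.7% the GC-box. The GC content was 52.8% for Igf1, 77.6% for Igf1r, and 73.2% for Igfbp3, against a median of 52.4% over all windows.

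Depth ran from 8052369 to 18159144 estimated counts per library, and the biological coefficient of variation was 14.8%. A gene was called changed at an adjusted p under 0.05 with an absolute log2 fold change over 0.5, the cutoffs the study used. The study took its fold changes from DESeq2 with apeglm shrinkage, which was not applied here. Each call below is from edgeR's quasi-likelihood test adjusted over 13315 genes unless limma is named. Normalised read counts are CPM (reads scaled to a common library size) after TMM scaling, and TPM is the level per transcript length. These scales differ in their centre: over all genes, the median difference from control at 1, 4, and 10 Hz was 0.04, 0.06, and 0.01 (log2) on TMM-scaled counts, and -0.15, -0.23, and -0.01 on log2(TPM + 1). Calls split into 958 higher and 1030 lower at 1 Hz and 1709 and 1635 at 4 Hz on counts, but 198 and 1710, and 333 and 3166, on log2(TPM + 1) with limma. Against 1 and 4 Hz, the 10 Hz libraries had 779 higher and 664 lower, and 1405 and 1414, on counts, but 1233 and 134, and 2806 and 291, on log2(TPM + 1). Values on log2(TPM + 1) are therefore given beside each difference from control that passed the adjusted p among the 10 genes at 1 or 4 Hz. Myotube markers were abundant, the 14 genes summing to 16538 to 27103 TPM per library. Of 7 cell cycle markers, 1 was called higher at 1 Hz, and 1 higher and 3 lower at 4 Hz. Of 8 markers of undifferentiated myoblasts, 1 was called higher and 2 lower at both 1 and 4 Hz. Shares of all genes called were 14.9% and 25.1%, and 0 of both lists were called at 10 Hz. Their part in the differences of the 10 genes was not tested. The 5 endothelial markers summed to at most 1.08 TPM. Of 5 macrophage markers, which summed to 74.3 to 102 TPM in the controls and 55.2 to 86.2, 56.0 to 93.4, and 59.7 to 79.0 TPM under 1, 4, and 10 Hz, 1 was tested, the lysosomal gene Cd68, and it was not called (log2 fold changes 0.01, 0.14, and -0.17 on counts). The defining genes Ptprc and Adgre1 were listed at 0 in all controls.

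**Figure D1:**
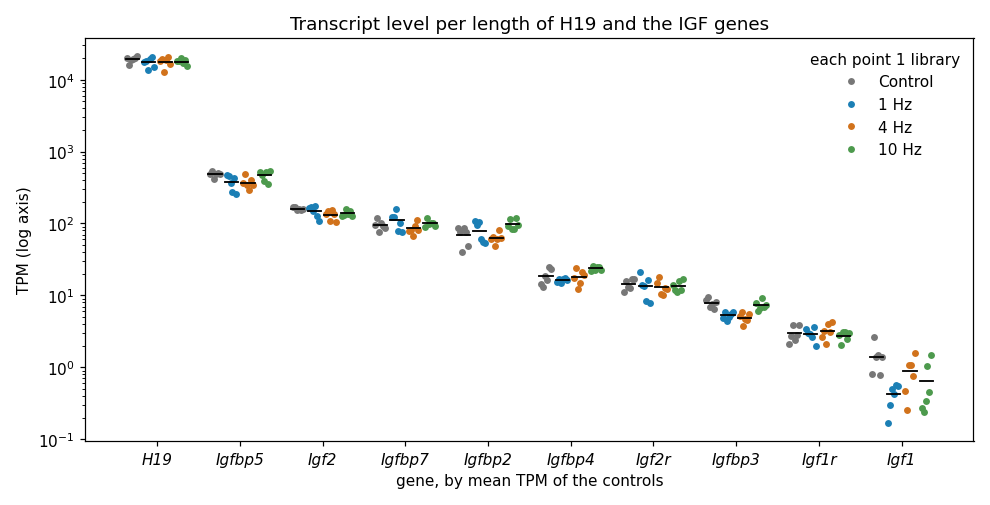
TPM (log axis) of the 10 genes in the 24 libraries, ordered by mean TPM of the controls, with 1 point per library, colours for the condition, and a black line at each mean of 6 libraries. H19 lies between 12627 and 21200 TPM and Igf1 between 0.171 and 2.62 TPM, with the same order of means in all 4 conditions.

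H19 was the most abundant gene of the control tissues by mean TPM and ranked between 1 and 6 in each of the 24 libraries. It took 1.49% to 2.48% of all estimated counts. The order of mean TPM was the same in all 4 conditions: H19, Igfbp5, Igf2, Igfbp7, Igfbp2, Igfbp4, Igf2r, Igfbp3, Igf1r, and Igf1. In the controls, the mean TPM was 19122 ± 1746 (SD, n = 6) for H19, 487 ± 37.4 for Igfbp5, 160 ± 7.71 for Igf2, and 1.41 ± 0.669 for Igf1, so Igf1 ranked 12217 and Igf2 949 among all genes by control mean. H19 lay above Igfbp5, and Igfbp5 above Igf2, in 24 of 24 libraries, without overlap in any condition. Igfbp7 and Igfbp2 were next to each other with overlapping ranges in all 4 conditions, Igfbp4 and Igf2r overlapped in 3, Igf2 and Igfbp7 in 2 (1 and 4 Hz), Igfbp3 and Igf1r at 4 Hz, and Igf1r and Igf1 in the controls.

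**Figure D2:**
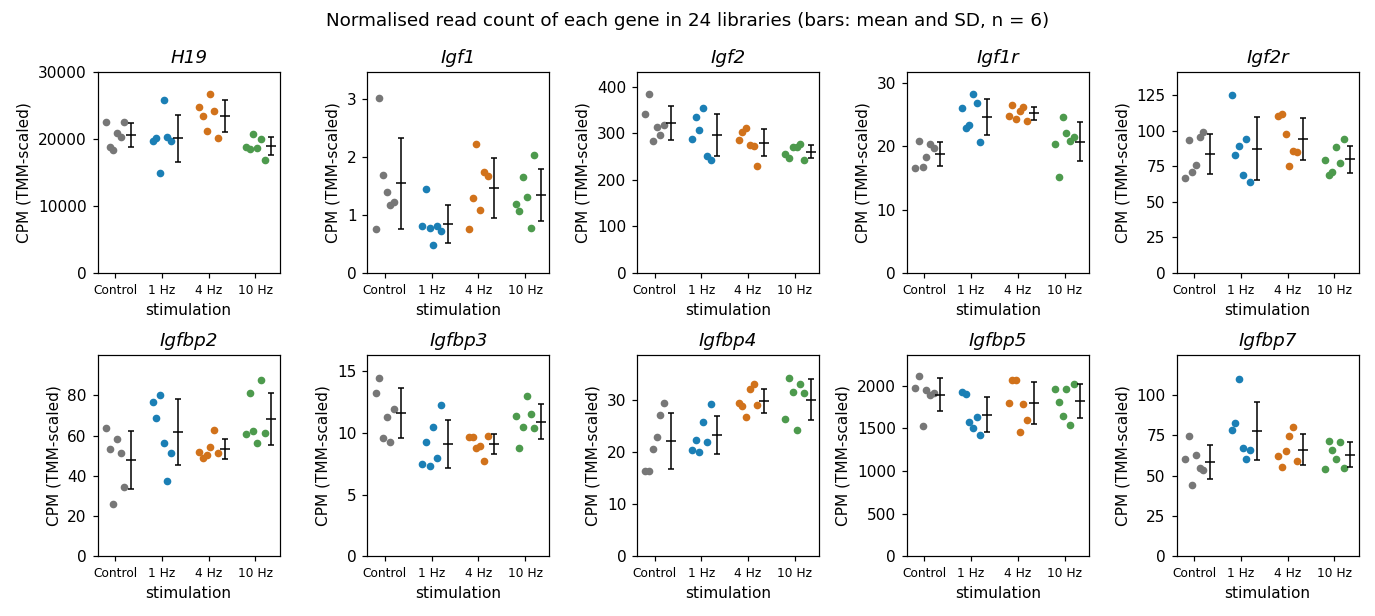
TMM-scaled CPM of each gene (linear axis from 0) in every library of the 4 conditions, with the mean and SD of 6 libraries as black bars. All 6 Igf1r values at 4 Hz lie above the controls, and all 6 Igf2 values at 10 Hz lie below them, while the other groups overlap with control; on TPM, these 2 groups overlap with control too.

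Against control, 1 of the 10 genes was called changed at 1 Hz, Igf1 (lower), where 14.9% of all tested genes were called and 7.74% were called lower. None was called at 4 Hz, where the share of all genes was 25.1%, and none at 10 Hz, where it was 0.0376%. By adjusted p alone, 4 of 10 passed at 1 Hz (Igf1r and Igfbp7 higher, Igf1 and Igfbp3 lower) beside 37.3% of all genes (19.2% higher and 18.1% lower), 3 of 10 at 4 Hz (Igf1r and Igfbp4 higher, Igfbp3 lower) beside 51.4% (27.5% and 23.9%), and 0 at 10 Hz beside 0.0376%. At 10 Hz, 3 members were at an unadjusted p under 0.05, beside 8.07% of all genes, and DESeq2 and limma also called 0 of the 10 there. The median log2 fold change of the 10 genes was 0.01, 0.16, and -0.06 at 1, 4, and 10 Hz, beside 0.04, 0.06, and 0.01 for all genes. On log2(TPM + 1), 3 of 10 passed limma's adjusted p at 1 Hz (Igf1, Igfbp3, and Igfbp5) and 3 at 4 Hz (Igf2, Igfbp3, and Igfbp5), all lower, beside 21.9% and 35.9% of all genes in that direction. None of the 10 had CPM ranges apart from control at 1 Hz, where 14.1% of all genes did. The 3 comparisons share the same 6 control libraries. Between frequencies, 0 of the 10 were called for 4 Hz against 1 Hz (0% of all genes, with 11% at an unadjusted p under 0.05), 0 for 10 Hz against 1 Hz (10.8%), and 0 for 10 Hz against 4 Hz (21.2%).

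**Figure D3:**
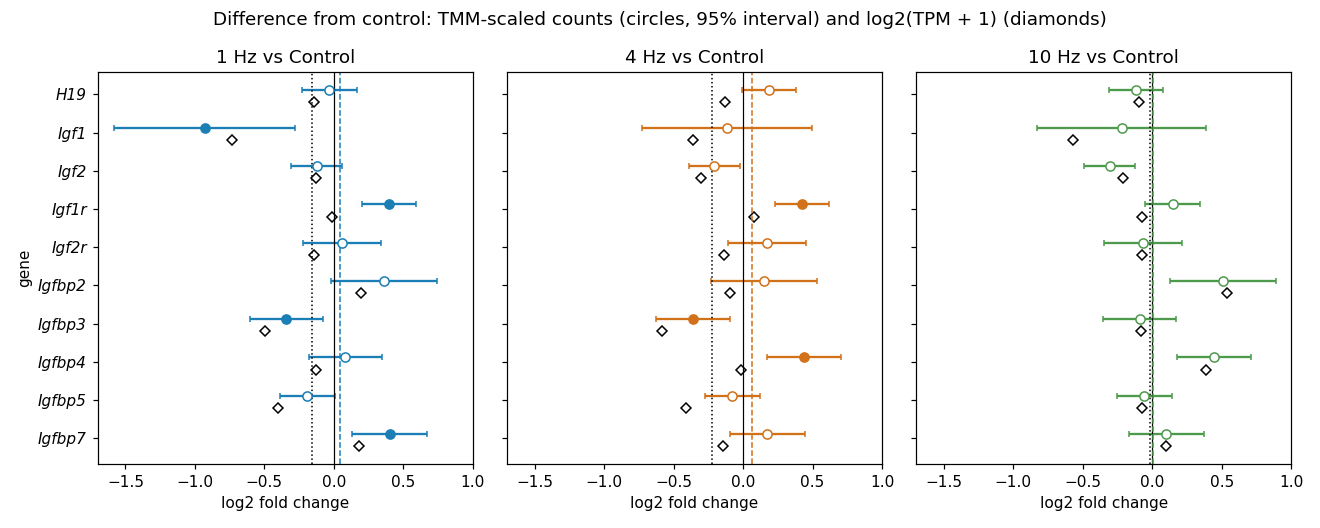
Log2 fold change of the 10 genes against control at 1, 4, and 10 Hz, as circles with 95% intervals on TMM-scaled counts (filled at an adjusted p under 0.05) and as diamonds on log2(TPM + 1), with dashed and dotted lines at the median of all genes on each scale. Igfbp3 lies left of 0 on both scales at 1 and 4 Hz, and Igf1r lies right of 0 on counts at 0.39 and 0.42 but near 0 on TPM.

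H19, the most abundant of the 10 genes, did not pass the test against control at any frequency. Its CPM ran from 18363 to 22610 in the controls with a median of 20573, 14880 to 25850 (median 19972) under 1 Hz, 20209 to 26718 (median 23813) under 4 Hz, and 16879 to 20825 (median 18707) under 10 Hz. The groups overlapped, with 4 of 6 libraries at 4 Hz above all controls. Relative to control, H19 stood at -0.03 ± 0.10 (log2, SE, adjusted p = 0.81) under 1 Hz and -0.12 ± 0.10 (adjusted p = 0.85) under 10 Hz. Under 4 Hz it stood at 0.19 ± 0.10 (adjusted p = 0.10), which was -0.13 on log2(TPM + 1). Between frequencies, H19 was lower at 10 Hz than at 4 Hz by edgeR, with 5 of 6 libraries at 10 Hz below all 6 at 4 Hz (-0.30 on the log2 scale, 95% interval -0.50 to -0.11, adjusted p = 0.011). It turned to 0.04 on log2(TPM + 1). Of 10 members, 2 passed the adjusted p in that comparison (H19 and Igf1r), beside 46.3% of all genes and 24.4% lower. In the same comparison, 10 of the 14 myotube markers were lower at an adjusted p under 0.05 with a median log2 fold change of -0.41, and their part in the H19 difference was not tested.

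The genes whose log2 CPM followed H19 most closely over the 24 libraries, among 11822 genes ranked, were Klhl40, a stabiliser of the thin filament (r = 0.93, Spearman's rho = 0.90), Chrng, the fetal subunit of the acetylcholine receptor (r = 0.93, rho = 0.92), and Tpm2, beta-tropomyosin (r = 0.93, rho = 0.89). With the mean of each condition removed, r was 0.92, 0.92, and 0.90. The points of these correlations share library and depth.

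The neighbours of H19 and Igf2 on chromosome 7 were measured in the same libraries. Of the 17 neighbouring genes on the list, 11 were tested. Nctc1, a muscle noncoding RNA whose start is 10.3 kb downstream of the H19 start, rose at 1 Hz from 3.02 ± 0.62 to 4.90 ± 1.61 CPM (SD, n = 6), by 0.73 on the log2 scale with adjusted p = 0.0035 by edgeR, which was 0.34 with adjusted p = 0.052 on log2(TPM + 1). It was the 1 neighbour called at 1 Hz, 9.09% of the 11 beside 14.9% of all genes. Mrpl23 also passed the adjusted p at 1 Hz, under the fold threshold (0.46, adjusted p = 0.0042 by edgeR). That made 2 of 11 beside 37.3% of all genes. At 4 Hz, 2 of 11 were called, beside 25.1% of all genes, both higher: Mrpl23, a mitochondrial ribosomal protein gene (0.58, adjusted p = 3.2e-04), and Tnni2, fast troponin I (0.57, adjusted p = 0.0069), with 0.27 and 0.23 on log2(TPM + 1). In the same comparison, 5 of the 14 myotube markers were higher at an adjusted p under 0.05, with a median of 0.25, and their part in the neighbours' differences was not tested. Of the other tested neighbours, 5 passed the adjusted p at 4 Hz under the fold threshold, all higher on counts, making 7 of 11 beside 51.4% of all genes (27.5% higher): Nctc1 (0.49, adjusted p = 0.036), Tspan32 (0.49, 0.0023), Ctsd (0.28, 0.0044), Tssc4 (0.28, 0.018), and Cd81 (0.16, 0.040), of which Ctsd, Tssc4, and Cd81 were negative on log2(TPM + 1). Tnnt3, Kcnq1, Lsp1, and Syt8 did not pass, at 0.27, 0.25, 0.15, and 0.09 on counts and all negative on log2(TPM + 1). The median of the 11 was 0.12, 0.28, and 0.01 for 1, 4, and 10 Hz, and 0 were called at 10 Hz.

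Igf1, the ligand that muscle is known to make under load, was the lowest of the 10 genes and the 1 that was called changed. Its CPM was 0.754 to 3.03 in the controls (median 1.31), 0.488 to 1.46 (median 0.790) under 1 Hz, 0.763 to 2.23 (median 1.49) under 4 Hz, and 0.783 to 2.03 (median 1.26) under 10 Hz. These values rest on 9 to 52 estimated counts in the controls and 7 to 15 at 1 Hz. All groups overlapped with control, 2 of 6 libraries at 1 Hz lying below all controls. Igf1 fell at 1 Hz by 0.93 on the log2 scale (95% interval -1.58 to -0.28, adjusted p = 0.023), and was called on log2(TPM + 1) as well (-0.73, adjusted p = 0.0091 by limma). On TPM, the 6 libraries at 1 Hz, 0.171 to 0.571, lay below all controls, 0.781 to 2.62, as did 9.57% of all genes. TPM departed from the read counts at this level. Control replicate 1 had 0.754 CPM and 0.802 TPM, while x1Hz replicate 1 had 0.809 CPM and 0.171 TPM. The call was lost without Control replicate 2, the library of 52 counts (-0.59, adjusted p = 0.12), and without x1Hz replicate 4 (-0.81, adjusted p = 0.061). At 4 and 10 Hz, the log2 fold change was -0.12 ± 0.30 and -0.22 ± 0.30 (SE, adjusted p = 0.77 and 0.94), and without Control replicate 2 both turned positive (0.22 and 0.12). Without x4Hz replicate 1 the value at 4 Hz was 0.00. The difference between 4 and 1 Hz was 0.81 ± 0.33 (adjusted p = 0.41), so Igf1 was not shown to differ between these frequencies.

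Igf2, an autocrine factor of differentiating myoblasts, was far more abundant per length than Igf1 in the controls, with a log2 ratio of Igf1 to Igf2 TPM of -6.95 ± 0.63 (SD, n = 6). Its CPM was 283 to 385 in the controls (median 315), 242 to 354 (median 298) under 1 Hz, 230 to 313 (median 280) under 4 Hz, and 242 to 277 (median 264) under 10 Hz. The 6 libraries at 10 Hz lay below all controls, which held for 0.864% of all genes in that direction, while the groups overlapped at 1 and 4 Hz. On TPM, the libraries at 10 Hz (128 to 161) overlapped with the controls (153 to 171). Igf2 stood at -0.31 ± 0.09 (log2, SE) under 10 Hz, which did not pass the adjusted p (0.23 by edgeR), and at -0.21 on log2(TPM + 1). Under 4 Hz it stood at -0.21 ± 0.09 (adjusted p = 0.056), and under 1 Hz at -0.12 ± 0.09 (adjusted p = 0.28). The value at 4 Hz was close to the threshold: it passed in 6 of 12 fits that left out 1 library (-0.27 to -0.15, adjusted p = 0.015 to 0.17) and in 8 of 9 other alternatives (all but upper-quartile factors), with adjusted p = 0.025 on log2(TPM + 1), where all 6 libraries at 4 Hz, 104 to 153 TPM, lay below the controls, 153 to 171, as did 23.9% of all genes. Igf2bp2, 1 of 3 genes for proteins that bind Igf2 mRNA and the 1 that was tested, had log2 fold changes of -0.01, -0.02, and 0.09.

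The log2 ratio of Igf1 to Igf2 TPM was -8.56 ± 0.86, -7.44 ± 1.11, and -8.12 ± 1.12 (SD, n = 6) under 1, 4, and 10 Hz, with 5 of 6 libraries at 1 Hz below all controls. By a two-sided exact permutation test with adjustment over 12 ratio tests, the difference at 1 Hz was -1.61 (p = 0.0043, adjusted p = 0.052), which failed the correction, while without x1Hz replicate 6 it was -1.79 with an adjusted p of 0.026. On counts in place of TPM, the difference at 1 Hz was -0.65 (adjusted p = 0.12 by the exact test). The smallest p this design allows is 0.0022. The log2 ratio of H19 to Igf2 TPM was 6.89 ± 0.19 in the controls and 6.88 ± 0.29, 7.07 ± 0.19, and 7.01 ± 0.10 at 1, 4, and 10 Hz. On TPM it did not pass the exact test against control (adjusted p = 0.95, 0.38, and 0.43). On counts, its differences from control were 0.08, 0.39, and 0.19, which did not pass either (adjusted p = 0.59, 0.052, and 0.052 by the exact test).

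Igf1r, the signalling receptor of both ligands, had the smallest p among the 10 genes on counts at 1 and 4 Hz. Its CPM was 16.5 to 20.9 in the controls (median 19.1), 20.7 to 28.2 (median 24.7) under 1 Hz, 23.9 to 26.6 (median 25.2) under 4 Hz, and 15.2 to 24.6 (median 21.2) under 10 Hz. All 6 libraries at 4 Hz lay above all controls, beside 12.9% of all genes in that direction, and 5 of 6 did so at 1 Hz. Under 1 Hz, Igf1r was higher by 0.39 (95% interval 0.20 to 0.59, adjusted p = 0.0022), and under 4 Hz by 0.42 (0.23 to 0.62, adjusted p = 7.1e-04), both on the log2 scale and under the fold threshold of 0.5, and the adjusted p stayed under 0.05 without any 1 of the 12 libraries in turn. On log2(TPM + 1), Igf1r stood at -0.02 at 1 Hz and 0.08 at 4 Hz (adjusted p = 0.95 and 0.70 by limma). Relative to the median of all genes on each scale, Igf1r stood at 0.35 and 0.36 on counts and at 0.14 and 0.30 on TPM. At 10 Hz it was 0.15 ± 0.10 (SE, adjusted p = 0.77), and it was lower under 10 Hz than under 4 Hz (-0.28, 95% interval -0.48 to -0.08, adjusted p = 0.020 by edgeR). That difference had adjusted p = 0.055 without x10Hz replicate 1, 0.094 without x10Hz replicate 2, and 0.44 on log2(TPM + 1).

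Igf2r, the clearance receptor for IGF2, was more abundant than Igf1r per length, at 14.4 ± 2.49 against 2.98 ± 0.768 TPM in the controls (SD, n = 6). Its CPM was 66.6 to 99.2 in the controls (median 84.7), 64.1 to 125 (median 86.0) under 1 Hz, 75.3 to 112 (median 91.5) under 4 Hz, and 69.2 to 93.8 (median 78.0) under 10 Hz, with overlap throughout. The log2 fold changes were 0.06 ± 0.14, 0.17 ± 0.14, and -0.07 ± 0.14 (SE, adjusted p = 0.76, 0.30, and 0.97), the first 2 of which were negative on log2(TPM + 1) (-0.14 at both). Airn, the noncoding RNA that overlaps Igf2r on the opposite strand, rose at 4 Hz from 3.77 ± 0.67 to 5.63 ± 0.71 CPM (0.57 on the log2 scale, adjusted p = 0.0028 by edgeR), which was 0.34 with adjusted p = 0.087 on log2(TPM + 1). The insulin receptor gene Insr, the tested gene among 7 further ligands and receptors, stood at 0.23 ± 0.10 under 1 Hz (adjusted p = 0.081) and at 0.27 ± 0.10 under 4 Hz (adjusted p = 0.027), below the fold threshold. The log2 ratio of Igf1r to Igf2r TPM was -2.29 ± 0.32 in the controls and differed by 0.14, 0.25, and -0.01 at 1, 4, and 10 Hz (exact permutation test, adjusted p = 0.56, 0.46, and 0.95).

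Among the binding proteins, Igfbp3, the main carrier of IGFs in blood, was the 1 member that passed the adjusted p on both scales at both 1 and 4 Hz, lower in each. Its CPM was 9.29 to 14.5 in the controls (median 11.6), 7.30 to 12.3 (median 8.60) under 1 Hz, 7.71 to 9.73 (median 9.31) under 4 Hz, and 8.79 to 13.0 (median 10.9) under 10 Hz. Groups overlapped on CPM, with 4 of 6 libraries under 1 Hz and 3 of 6 under 4 Hz below all controls. Igfbp3 was lower under 1 Hz (log2 fold change -0.34, 95% interval -0.60 to -0.08, adjusted p = 0.037) and under 4 Hz (-0.36, interval -0.62 to -0.09, adjusted p = 0.023), under the fold threshold. The value at 1 Hz missed the adjusted p with upper-quartile factors (0.055) and with only the 2 groups compared (0.079). On log2(TPM + 1), it was -0.50 under 1 Hz (adjusted p = 0.0031 by limma) and -0.58 under 4 Hz (adjusted p = 2.9e-04), and relative to the median of all genes it was -0.38 and -0.42 on counts and -0.34 and -0.36 on TPM. On TPM, the libraries at 1 Hz (4.44 to 5.91) and at 4 Hz (3.75 to 5.96) all lay below the controls (6.47 to 9.61), as did 9.57% and 23.9% of all genes. At 10 Hz, Igfbp3 was at -0.09 ± 0.13 (SE, adjusted p = 0.94). Leaving out 1 library moved the adjusted p at 1 Hz to between 0.054 and 0.11 for Control replicates 1, 2, and 6 and x1Hz replicates 1, 2, 3, and 5, and at 4 Hz to 0.052 and 0.077 for Control replicates 1 and 2, with the direction kept in each. Of 9 fibroblast markers, 6 were tested and 1 was called, Col1a1, lower at 1 and 4 Hz (-0.70 and -0.71), while Pdgfra (0.28 and 0.36) and Dcn (0.39 and 0.43) were higher by adjusted p under the fold threshold. Their summed TPM was 404 to 627 in the controls, 316 to 607 under 1 Hz, and 361 to 560 under 4 Hz, and their part in the Igfbp3 difference was not tested.

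Igfbp4, which is regarded as an inhibitor of IGF action until it is cleaved, had a CPM of 16.3 to 29.3 in the controls (median 21.7), 19.9 to 29.2 (median 22.1) under 1 Hz, 26.6 to 32.9 (median 29.1) under 4 Hz, and 24.1 to 34.1 (median 31.3) under 10 Hz. The range of the controls covered all libraries under 1 Hz, 4 of 6 under 4 Hz, and 2 of 6 under 10 Hz. Relative to control, Igfbp4 stood at 0.08 ± 0.13 (log2, SE, adjusted p = 0.64) under 1 Hz. Under 4 Hz it was higher by 0.44 ± 0.13 (adjusted p = 0.0066), while the same 0.44 ± 0.13 under 10 Hz did not pass (adjusted p = 0.23). The unadjusted p by edgeR was 0.0022 at 4 Hz and 0.0018 at 10 Hz, so only the adjustment over all genes set these results apart. The difference of 10 Hz from 4 Hz was 0.008 (adjusted p = 0.96). On log2(TPM + 1), the value at 4 Hz was -0.01 (adjusted p = 0.95 by limma), whereas that at 10 Hz was 0.39 (adjusted p = 0.76). Igfbp4 was higher under 10 Hz than under 1 Hz by 0.36 (log2, 95% interval 0.10 to 0.63, adjusted p = 0.038 by edgeR), 1 of 10 members beside 27.9% of all genes and 14.8% higher. That difference missed the threshold in 7 of 12 fits that left out 1 library, with adjusted p = 0.053 to 0.086 (x1Hz replicates 1, 2, 3, and 5 and x10Hz replicates 2, 5, and 6).

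Igfbp5, the binding protein most closely tied to myogenic differentiation, had a CPM of 1531 to 2110 in the controls (median 1928), 1427 to 1923 (median 1600) under 1 Hz, 1458 to 2071 (median 1791) under 4 Hz, and 1536 to 2019.9 (median 1881) under 10 Hz. All groups overlapped. Against control, Igfbp5 stood at -0.19 ± 0.10, -0.08 ± 0.10, and -0.06 ± 0.10 (log2, SE) under 1, 4, and 10 Hz, with adjusted p = 0.12, 0.52, and 0.96. Measured as log2(TPM + 1), it was lower, with differences of -0.40 and -0.41 under 1 and 4 Hz (adjusted p = 0.037 and 0.022 by limma), or -0.25 and -0.18 relative to the median of all genes on that scale. The genes closest to Igfbp5 over the 24 libraries were Sh3pxd2a (r = 0.85), Prrg4 (r = 0.85), and Pdpr (r = 0.85). With the mean of each condition removed, r was 0.89, 0.85, and 0.83.

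Igfbp7, a low-affinity binding protein, had a CPM of 44.0 to 74.7 in the controls (median 57.7), 60.4 to 110 (median 72.9) under 1 Hz, 55.6 to 80.2 (median 63.7) under 4 Hz, and 54.2 to 71.5 (median 63.3) under 10 Hz. The groups overlapped, with 3 of 6 libraries at 1 Hz above all controls. Igfbp7 was higher under 1 Hz by 0.40 (log2, 95% interval 0.13 to 0.67, adjusted p = 0.018), but by 0.26 (adjusted p = 0.083) without x1Hz replicate 3 and 0.18 (adjusted p = 0.38) on log2(TPM + 1). At 4 and 10 Hz it was 0.17 ± 0.13 and 0.10 ± 0.13 (SE, adjusted p = 0.27 and 0.93), with -0.15 on log2(TPM + 1) at 4 Hz. Igfbp2, whose protein also binds integrins, had a CPM of 25.9 to 63.9 in the controls (median 52.3), 37.5 to 79.98 (median 62.6) under 1 Hz, 48.6 to 62.9 (median 51.6) under 4 Hz, and 56.2 to 87.8 (median 61.8) under 10 Hz. Its log2 fold change was 0.36 ± 0.19 at 1 Hz (SE, adjusted p = 0.13), 0.15 ± 0.19 at 4 Hz (adjusted p = 0.52, -0.09 on log2(TPM + 1)), and 0.51 ± 0.19 at 10 Hz (adjusted p = 0.45), none past the test. Without x1Hz replicate 5, Igfbp2 passed the adjusted p under 1 Hz (0.47, adjusted p = 0.034).

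**Figure D4:**
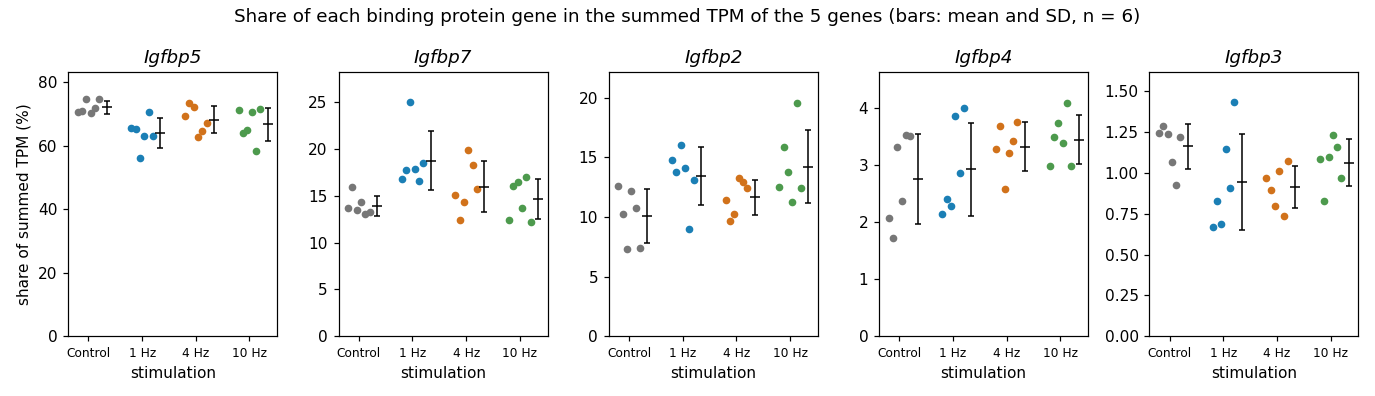
Share of each of the 5 binding protein genes in their summed TPM, in percent (axis from 0), with 1 point per library and the mean and SD of 6 libraries as bars. Igfbp5 makes up 70.1% to 74.7% in the controls and 56.0% to 70.7% at 1 Hz.

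In the summed TPM of the 5 binding proteins, which was 677 ± 64.7 in the controls and 590 ± 135, 542 ± 81.7, and 696 ± 72.3 under 1, 4, and 10 Hz (SD, n = 6), Igfbp5 had a share of 72.1% ± 2.09 in the controls and 63.9% ± 4.78, 68.1% ± 4.17, and 66.7% ± 5.28 under the 3 frequencies. The share of Igfbp7 was 13.9% in the controls and 18.7% ± 3.15 at 1 Hz, where all 6 libraries (16.6% to 25.0%) lay above all controls (13.1% to 15.9%). Shares are tied to each other and were not tested. Igfbp6, a binding protein with preference for IGF2 that is not among the 10 genes, was also abundant, and with Igfbp1 and Igfbp6 in the sum it took 23.9% ± 1.73 in the controls and Igfbp5 54.8% ± 1.52, while Igfbp1 was listed at 0. In that sum, the share of Igfbp7 overlapped, the lowest library at 1 Hz (12.1%) lying below the highest control (12.4%). The log2 ratio of Igfbp5 to Igfbp4 TPM was 4.76 ± 0.41 in the controls and differed by -0.27, -0.40, and -0.49 at 1, 4, and 10 Hz (exact permutation test, adjusted p = 0.46, 0.18, and 0.18).

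Of 8 further binding proteins and related genes, 4 were tested and 1 was called at both 1 and 4 Hz, beside 14.9% and 25.1% of all genes. Kazald1, a secreted protein of the IGF binding protein superfamily, rose from 2.02 ± 0.63 CPM in the controls to 3.52 ± 0.95 at 1 Hz (log2 fold change 0.81, adjusted p = 0.0033) and 3.84 ± 0.81 at 4 Hz (0.91, adjusted p = 8.4e-04 by edgeR), and it passed on log2(TPM + 1) with 0.46 and 0.47. Igfbp6 was at 0.19 (adjusted p = 0.12) and 0.28 (adjusted p = 0.020), under the fold threshold, as was the protease Htra1, at 0.44 and 0.45 (adjusted p = 1.8e-05 and 6.5e-06). Neither was called, so both lie outside the rule for naming list genes. All 6 libraries of both frequencies lay above the controls for Htra1. Groups were apart for 14.1% of all genes at 1 Hz in either direction, and for 12.9% at 4 Hz in the higher direction. Among the 11 proteases that cleave binding proteins and their inhibitors, 10 were tested, and 1 higher and 1 lower were called at 1 Hz, 1 higher and 2 lower at 4 Hz, beside 14.9% and 25.1% of all genes called. Adamts1, a secreted metalloproteinase, rose from 44.3 ± 10.4 CPM to 110 ± 20.2 at 1 Hz (log2 fold change 1.31, adjusted p = 2.6e-06) and 135 ± 17.5 at 4 Hz (1.61, adjusted p = 8.7e-08). Adam12, a membrane protease that cleaves IGFBP3 and IGFBP5, fell from 6.67 ± 2.65 CPM to 1.77 ± 0.84 under 1 Hz (-1.96, adjusted p = 1.1e-05) and to 1.49 ± 0.32 under 4 Hz (-2.17, adjusted p = 2.4e-06). For both genes, all 6 libraries of each frequency lay outside the control range, as did 14.1% of all genes at 1 Hz in either direction and 12.9% at 4 Hz in the higher direction. The share in the lower direction at 4 Hz, that of Adam12, is not given here. Both differences had the same direction on log2(TPM + 1). Stc2, an inhibitor of the IGFBP protease PAPP-A that was named after its value was seen, fell at 4 Hz from 9.07 ± 1.13 to 6.11 ± 0.57 CPM (-0.57, adjusted p = 1.0e-04), and was at -0.52 on log2(TPM + 1).

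**Figure D5:**
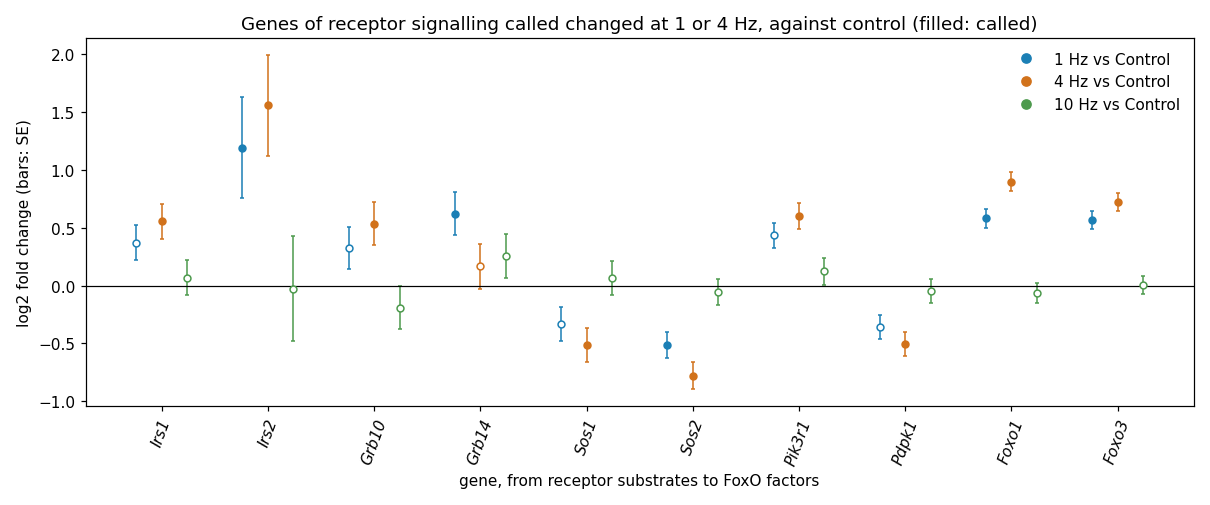
Log2 fold change against control (TMM-scaled counts, bars are the SE) at 1, 4, and 10 Hz for the 10 genes of IGF1 and insulin receptor signalling that were called changed at 1 or 4 Hz, from receptor substrates to FoxO factors, with filled points where a gene was called. Irs2, Foxo1, and Foxo3 lie above 0.5 at 1 and 4 Hz, and no point at 10 Hz is filled.

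Of 31 genes of receptor signalling, 30 were tested. At 1 Hz, 4 were called higher and 1 lower, and at 4 Hz 6 higher and 3 lower, with a list median of 0.01 and -0.01 beside 0.04 and 0.06 for all genes. The 5 and 9 calls among 30 genes were 16.7% and 30%, beside the 14.9% and 25.1% of all genes. Foxo1, a transcription factor that AKT keeps out of the nucleus, rose from 31.0 ± 2.86 to 46.3 ± 3.86 at 1 Hz (0.58, adjusted p = 7.8e-06) and 57.8 ± 4.57 CPM at 4 Hz (0.90, adjusted p = 8.0e-09). Foxo3, of the same family, rose by 0.57 and 0.72 (adjusted p = 4.2e-06 and 7.3e-08). Sos2, an exchange factor for RAS, fell from 58.0 ± 3.72 to 40.7 ± 7.03 at 1 Hz (-0.51, adjusted p = 0.0010) and 33.7 ± 6.48 CPM at 4 Hz (-0.78, adjusted p = 5.7e-06).

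The other called signalling genes were named after their values were seen. Irs2, a docking protein of the activated receptors, rose from 10.7 ± 5.53 CPM in the controls to 24.6 ± 10.3 at 1 Hz (log2 fold change 1.19, adjusted p = 0.037) and 31.7 ± 8.04 at 4 Hz (1.56, adjusted p = 0.0057). Its call at 1 Hz was lost with the replicate block (1.15, adjusted p = 0.079), when all genes were kept (0.088), and as log2(TPM + 1) (0.76, adjusted p = 0.077), while at 4 Hz it passed in each of these. Grb14, an adaptor that inhibits the receptor kinase, rose at 1 Hz (0.62, adjusted p = 0.011). At 4 Hz, the docking protein gene Irs1 (0.56, adjusted p = 0.0037), Grb10, the imprinted adaptor (0.54, adjusted p = 0.017), and Pik3r1, a regulatory subunit of PI3K (0.61, adjusted p = 9.2e-05), rose, and Sos1 (-0.51, adjusted p = 0.0059) and Pdpk1, a kinase that activates AKT (-0.50, adjusted p = 2.9e-04), fell. With upper-quartile factors, Sos2 at 1 Hz (-0.496) and Sos1 and Pdpk1 at 4 Hz (-0.48 and -0.47) were under the fold threshold. Grb10 at 4 Hz was under it when all genes were kept (0.49). As log2(TPM + 1), all 5 calls at 1 Hz and all 9 at 4 Hz kept their sign, and 3 and 6 of them passed the adjusted p with limma. Akt1, Akt2, and Mtor, which encode kinases further down the pathway, were not called at either frequency, with log2 fold changes at 4 Hz of -0.02, -0.05, and 0.14. At 10 Hz, 0 of the 30 were called by edgeR, as were 0 genes of the other pathway lists.

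Of 27 genes of the imprinted gene network to which H19 and Igf2 belong, 16 were tested. At 1 Hz, 0 were called higher and 2 lower, Mest and Plagl1, the latter named after its value was seen (-0.91, adjusted p = 0.0499). That made 2 of 16, a smaller share than the 14.9% of all genes. The call of Plagl1 was lost by DESeq2 (adjusted p = 0.073), with upper-quartile factors (0.055), and when all genes were kept (0.092), and the gene was under the TPM filter. At 4 Hz, 2 were called higher, Airn and Grb10, and 1 lower, Mest. These 3 of 16 were likewise a smaller share than the 25.1% of all genes. Mest, an imprinted hydrolase gene of mesoderm, fell from 1.93 ± 0.40 CPM in the controls to 1.13 ± 0.45 at 1 Hz (log2 fold change -0.78, adjusted p = 0.031) and 0.813 ± 0.423 at 4 Hz (-1.25, adjusted p = 0.0014). On log2(TPM + 1), Mest stood at -0.48 under 1 Hz (adjusted p = 0.065 by limma) and -0.72 under 4 Hz (adjusted p = 0.0036), so 0 of the calls at 1 Hz and 1 of 3 at 4 Hz passed on that scale. The median of the list was 0.05, 0.14, and 0.00 at 1, 4, and 10 Hz.

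The genes that followed Igf1 most closely over the 24 libraries were Cubn (r = 0.72), Myrf (r = 0.67), and Dph6 (r = 0.67), and those for Igf2 were Thbd (r = 0.71), Id2 (r = 0.69), and Ivns1abp (r = 0.67). With the mean of each condition removed, r was 0.77, 0.54, and 0.62 for Igf1 and 0.69, 0.65, and 0.56 for Igf2. All are lower than the r for H19, and Igf1 rests on counts near the limit of the filter.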

How the data were processed

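RNA of 24 C2C12 tissues of the 60-min experiment was sequenced by the authors in a paired-end configuration. The authors processed reads with an RNA-seq pipeline on GRCm39. The estimated counts per gene were deposited as salmon gave them, not normalized. The TPM values were deposited as the pipeline gave them, divided by transcript length. BWA 0.7.12-r1039, bedtools 2.25.0, STAR, and Salmon are named per the labels, without their roles, and some low-input libraries were ribodepleted without the labels saying which.

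Counts were rounded, filtered with filterByExpr (minimum count 10, total 15), scaled by TMM, and tested with edgeR 4.0.16 (quasi-likelihood, 1 fit of 24 libraries, R 4.3.3), with Benjamini-Hochberg adjustment over 13315 genes. Alternatives were DESeq2 1.42.0, limma 3.58.1 on log2(TPM + 1) and log2(TPM + 0.1) of genes at 1 TPM or more in 6 libraries, RLE and upper-quartile factors, other filters (none; 50 counts in 6 libraries), 2-group fits, a replicate block, and leaving out each library. Ratios of TPM used a two-sided exact permutation test. The script was tested on simulated data: at 1 Hz against control (13059 genes), 89.9% of 99 genes changed by 1 on the log2 scale were recovered and 36.4% of 99 changed by 0.4, with 5 false calls. The members and gene lists were chosen with earlier results of these data known. Named list genes are, per direction, the called gene of lowest p at 1 and 4 Hz, every called list gene at 10 Hz, and all tested neighbours of H19 and Igf2, and genes with a similar pattern are the 3 with the highest Pearson r. Positions are from GENCODE M39, which held 98.9% of the gene identifiers.

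Depth of 8052369 to 18159144 estimated counts per library sets the precision. With 6 libraries per condition, changes near 0.4 were often missed in the simulation, where 99 genes changed by 0.4 and 99 by 1. In the data, 37.3% of all genes passed the adjusted p at 1 Hz and 51.4% at 4 Hz. The adjustment was therefore stricter in the simulation, and its recovery does not carry over to these comparisons. The replicate numbers did not mark a shared culture or batch in the labels.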

Additional observations from a re-analysis of the deposited data

Results flagged for a closer look

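Among 40 groups of 6 CPM values (10 genes in 4 conditions), 2 had a library far from the others, where chance gives about 1 in 20. Igf1 in x1Hz replicate 2 was at 1.46 CPM with the nearest library at 0.809. Igfbp5 in Control replicate 3 was at 1530 CPM with the nearest at 1890.

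Differences between frequencies in 3 genes were past an adjusted p of 0.05 in edgeR's test of the difference itself, all under the fold threshold of 0.5. Igfbp4 was higher at 10 Hz than at 1 Hz (log2 fold change 0.361), with 4 of 6 libraries above all at 1 Hz. H19 was lower at 10 Hz than at 4 Hz (-0.305), and Igf1r likewise (-0.279), each with 5 of 6 libraries below all at 4 Hz.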

How the results depend on the processing

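Igf1 was limited by its few counts, and how many log2 changes near 0.4 were missed with 6 libraries per condition was not tested at the share of changed genes seen here. Counts of called members moved as follows. At 1 Hz (1 in the report), the strict filter gave 0 of 9 tested, since it removed Igf1 before testing. There, log2(TPM + 0.1) gave 2, no fold threshold 4, and leaving out 1 library 0 to 1 (0 without Control replicate 2 or x1Hz replicate 4). At 4 Hz (0), log2(TPM + 1) and log2(TPM + 0.1) each gave 1, no fold threshold 3, and leaving out 1 library 0 to 1 (1 without Control replicate 6). For 10 Hz against 1 Hz (0), the TPM fits gave 1 each, no fold threshold 1, and leaving out 1 library 0 to 1 (1 without x1Hz replicate 2). For 10 Hz against 4 Hz (0), log2(TPM + 1) gave 1, log2(TPM + 0.1) 2, and no fold threshold 2. Over all genes, 10 Hz against control had 5 calls, but 3 with the block, 22 by DESeq2, 23 with only the 2 groups, and 0 on TPM, and 4 Hz against 1 Hz had 0, but 1 with the block and 1 by DESeq2.

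On log2(TPM + 1) and log2(TPM + 0.1), directions reversed at 1 Hz for Igf1r (-0.017, -0.020), Igf2r (-0.14, -0.16), and Igfbp4 (-0.13, -0.13), at 4 Hz for H19 (-0.13, -0.13), Igf2r (-0.14, -0.15), Igfbp2 (-0.092, -0.092), Igfbp4 (-0.013, -0.014), and Igfbp7 (-0.15, -0.15), at 10 Hz for Igf1r (-0.074, -0.092), and between 10 and 4 Hz for H19 (0.036, 0.036). The cause was not tested. On counts in place of TPM, the log2 ratio difference turned to 0.085 for H19 to Igf2 at 1 Hz, 0.20 and 0.18 for Igf1 to Igf2 at 4 and 10 Hz, and 0.20 for Igf1r to Igf2r at 10 Hz. The other ratios kept their sign. Igf1r to Igf2r was at 0.35 and 0.26 at 1 and 4 Hz (adjusted p = 0.074 at both by the exact test). Igfbp5 to Igfbp4 was at -0.29, -0.55, and -0.53 at 1, 4, and 10 Hz (adjusted p = 0.32, 0.074, and 0.074).

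Leaving out 1 library reversed H19 (-0.14 to 0.025), Igf2r (-0.070 to 0.11), and Igfbp4 (-0.023 to 0.18) at 1 Hz and Igf1 at 4 Hz (-0.28 to 0.22) and 10 Hz (-0.38 to 0.12), none of which had passed the test. The ratio of H19 to Igf2 at 1 Hz ran from -0.11 to 0.061, of Igf1 to Igf2 at 1 Hz from -1.79 to -1.34, and of Igf1r to Igf2r at 10 Hz from -0.10 to 0.10.

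Same-numbered libraries of different conditions did not deviate together: the correlation passed 0.1 in 3 of 36 pairs (lowest -0.33, highest 0.24). With the replicate number as a block, the count of called members was unchanged in each comparison, and 1 of 34 results for the 10 genes changed sides of the adjusted p, Igf2 at 4 Hz (-0.21, adjusted p = 0.040).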
